A study of Homo sapiens with 6 samples.

Results

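The 83 miRNAs described here are mature miRNAs with high 3-digit numbers, 550 to 943 on this array, which were measured in a human liver cancer line given extra HDAC6. They were chosen by name: every human row with a 3-digit number of 550 or more that is neither a star strand nor a precursor, without 12 numbers (miR-566, miR-570, miR-574, miR-654, miR-655, miR-656, miR-665, miR-668, miR-758, miR-770, miR-885 and miR-889). Both the range and the omitted numbers were set with the HDAC6-minus-Mock differences of these arrays known, so the differences and calls below describe the miRNAs and support nothing about the range. They are 83 of 386 guide-strand rows and of 581 rows with a value.

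The cells were Hep3B, an established human hepatocellular carcinoma line, transfected with lipofectamine. HDAC6 cells received the plasmid pcDNA3.1 carrying HDAC6, an enzyme that removes acetyl groups from tubulin and works mostly in the cytoplasm, and Mock cells received empty pcDNA3.1. Each group had 3 arrays of the GenoExplorer chip, labelled with biotin, and per the series title the question was which miRNAs HDAC6 regulates. Equal amounts of RNA of 3 extractions were mixed for each condition, so the arrays of a group may all carry the same pool, and p-values then reflect only the technical spread of arrays. HDAC6 itself was not measured.

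A miRNA is cut from a hairpin precursor by Drosha and then Dicer, and the strand that is kept, the guide, directs an Argonaute protein to messenger RNAs that pair with its seed, the bases near its 5′ end. Numbers were given in the order of discovery. Numbers in this range came mostly from cloning and sequencing screens that followed the first conserved miRNAs, and many of these miRNAs are found in primates only, lie inside introns of protein-coding genes and are low in most tissues. A few names have since been traced to other small RNAs, among them tRNA fragments and a vault RNA.

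Mature sequences were matched to RefSeq (GRCh38.p14) by exact name for 47 of the 83 miRNAs, which were 19 to 25 bases long. The sequences of several of the miRNAs that differed most between the groups are shown first, 5′ to 3′, with the seed (bases 2 to 8) in capitals. The first 7 were higher in HDAC6 cells and the last 2 lower.
miR-571: uGAGUUGGccaucugagugag
miR-648: aAGUGUGCagggcacuggu
miR-762: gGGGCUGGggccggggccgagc
miR-631: aGACCUGGcccagaccucagc
miR-608: aGGGGUGGuguugggacagcuccgu
miR-760: cGGCUCUGggucugugggga
miR-638: aGGGAUCGcgggcggguggcggccu
miR-590-5p: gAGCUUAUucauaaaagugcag
miR-657: gGCAGGUUcucacccucucuagg
The 47 matched miRNAs had 47 different seeds, so none shared a seed with another of them. Among 2370 human mature names in RefSeq, 10 of the 47 shared their seed with at least 1 other name. The seed AGCUUAU of miR-590-5p is that of miR-21-5p, a miRNA that is abundant in many cancers, and the seed of miR-631 is that of miR-3661. The miR-21 row had signals of 10.21, 9.75 and 10.74 on the HDAC6 arrays, against 11.21, 11.48 and 11.66 on the Mock arrays. Since fewer than 80% of the miRNAs had a sequence, a check of base composition over them was void.

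All values are normalized signals on a log2 scale, where a step of 1 is a 2-fold change. The arrays were quantile normalized by the authors, so every difference is relative to the other rows of the array. Without detection flags, it is unknown how far a given row lay above background. Binding of a row's probe differs between sequences, so the order of levels between miRNAs is an order of signals, not of molecules. Across the 83 miRNAs the HDAC6 arrays correlated with one another at r = 0.951 to 0.977, and Mock arrays 1 and 2 at 0.947. Mock array 3 stood apart, at 0.862 and 0.876 with the other Mock arrays, close to the 0.764 to 0.874 between HDAC6 and Mock arrays. A row named "none", whose content is not given in the sources used here, read 5.48, 6.46 and 5.88 on the HDAC6 arrays, against 6.92, 6.07 and 8.73 on the Mock arrays. Of the 83 miRNAs, 1, 21 and 7 lay below it on the HDAC6 arrays, against 27, 11 and 71 on the Mock arrays. Of the miRNAs known from liver, miR-192 was the 8th and miR-194 the 21st brightest of all rows by the mean of 6 arrays, whereas the hepatocyte miRNA miR-122 ranked 278th. Both of the bright ones were lower in HDAC6 cells: miR-192 averaged 11.26 in HDAC6 cells and 13.15 in Mock cells, and miR-194 10.38 in HDAC6 cells and 12.02 in Mock cells. The rows of miR-143 and miR-145, markers of stromal and smooth muscle cells, averaged 6.60 and 7.17 over the 6 arrays, below the median row at 7.55. On HDAC6 array 1, however, miR-145 read 8.955, above that array's median of 7.58, against 6.63 and 6.43 on the other HDAC6 arrays.

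Of the 83 miRNAs, 26 were higher and 7 lower in HDAC6 cells, and 50 did not pass the test (limma across all 581 rows, two-sided, Benjamini-Hochberg adjusted p under 0.05). The share higher was 31.3%, where 21.3% of all rows were called higher, and the share lower was 8.43%, where 24.4% of all rows were called lower. At least a 2-fold change was found for 14 higher miRNAs (12.0% of all rows) and 4 lower ones (16.9% of all rows). The groups did not overlap for 33 miRNAs that were higher (27.0% of all rows) and 12 that were lower (29.8% of all rows). The median difference was 0.30, against -0.38 over the 303 other guide-strand rows, of which 54 were higher and 107 lower, and -0.09 over all rows. The median of the 83 miRNAs was 7.41, 7.50 and 7.40 on the HDAC6 arrays, against 7.19, 7.13 and 7.09 on the Mock arrays, so the groups did not overlap in it. Adjusted p of the called miRNAs lay between 0.00272 and 0.0488. The calls fell to 16 higher without HDAC6 array 1, and to 17 higher and 3 lower without Mock array 1.

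**Figure D1:**
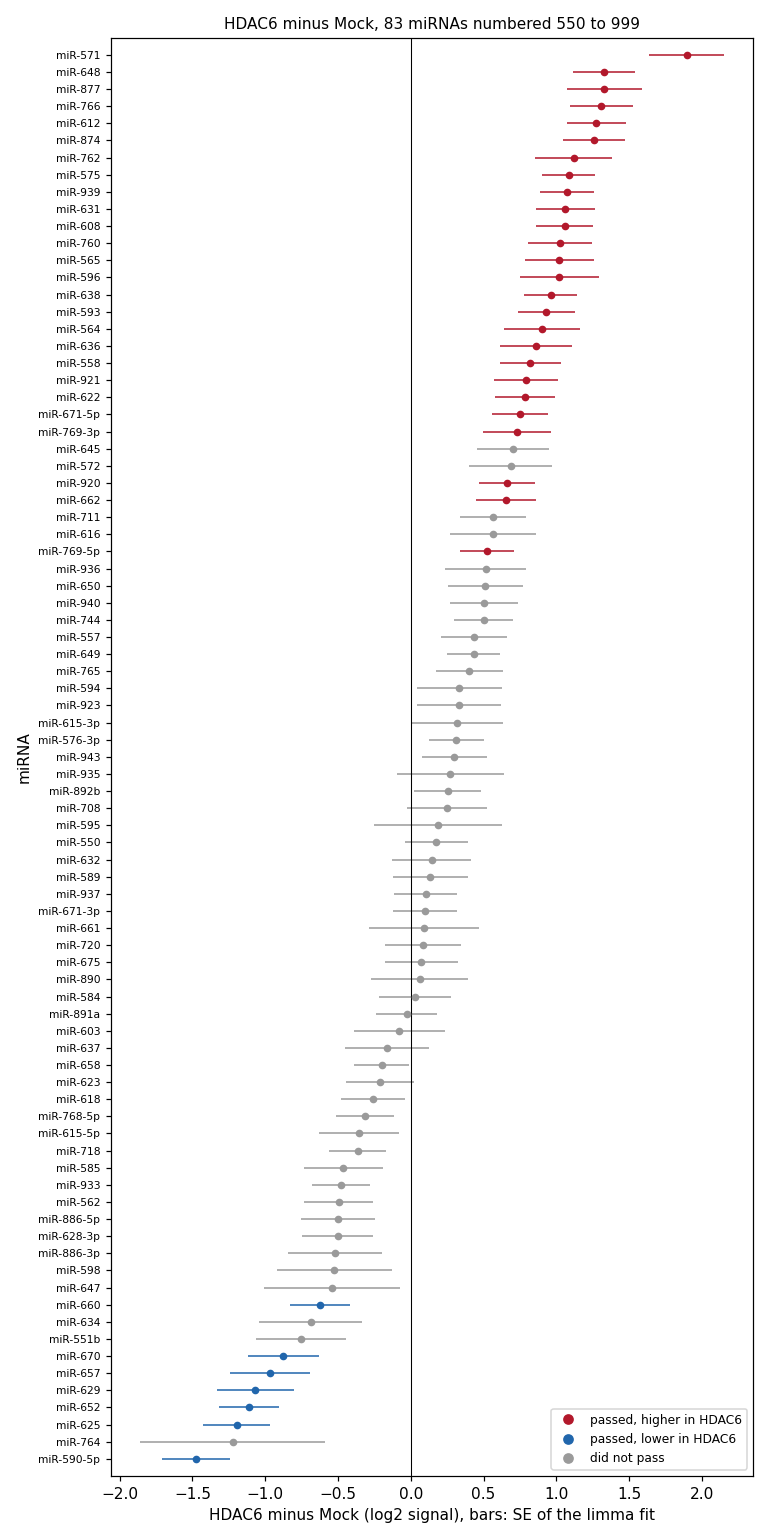
HDAC6-minus-Mock difference of each of the 83 miRNAs (x axis, log2 signal; bars are the standard error of the limma fit, 3 arrays per group), in order from highest to lowest. The 26 miRNAs that passed and were higher are red, the 7 that passed and were lower are blue, and the 50 that did not pass are grey; the values run from 1.89 for miR-571 to -1.47 for miR-590-5p.

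The largest rise was that of miR-571, which has been studied as a serum miRNA in liver cirrhosis and lies within the span of ZNF141 on chromosome 4. Its signal was 7.52, 8.10 and 7.51 on the HDAC6 arrays, against 5.84, 5.48 and 6.12 on the Mock arrays. Every HDAC6 array was more than 1 unit above every Mock array. The difference was 1.89 (SE 0.258), or 3.72-fold (limma, adjusted p = 0.00272). Its mean was 7.71 in HDAC6 cells and 5.81 in Mock cells, the lowest Mock mean of the 83.

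Next came miR-648, which lies within the span of MICAL3 on chromosome 22. It read 8.93, 8.83 and 8.84 on the HDAC6 arrays, against 7.22, 7.58 and 7.82 on the Mock arrays. The HDAC6 arrays were nearly alike and the Mock arrays more spread out, and the groups did not overlap. The difference was 1.33 (SE 0.212), 2.51-fold.

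An equal change was measured for miR-877, a mirtron, that is, a short intron of ABCF1 on chromosome 6 that splicing rather than Drosha releases. Its signal was 9.52, 10.08 and 9.58 on the HDAC6 arrays, against 8.11, 8.30 and 8.79 on the Mock arrays. The groups did not overlap, and the difference of 1.33 (SE 0.258) was again 2.51-fold. The row of its other strand, miR-877*, did not pass, with a difference of -0.40.

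The signal of miR-766, which lies within the span of SEPTIN6 on the X chromosome, was among the 5 highest of the 83 miRNAs. It was 10.54, 10.85 and 10.53 on the HDAC6 arrays, against 9.12, 9.24 and 9.63 on the Mock arrays, with no overlap. The difference was 1.31 (SE 0.216), 2.48-fold. A similar rise was seen for miR-612, which represses the kinase AKT2 in liver cancer cells. It read 8.62, 8.63 and 8.86 on the HDAC6 arrays, against 7.19, 7.48 and 7.63 on the Mock arrays, a difference of 1.27 (SE 0.201) or 2.42-fold. In both, the lowest HDAC6 array was above the highest Mock array by more than 0.5.

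Signals of miR-874, a miRNA conserved among mammals, were 8.45, 8.44 and 8.75 on the HDAC6 arrays, against 7.10, 7.19 and 7.58 on the Mock arrays. The groups did not overlap, and the difference was 1.26 (SE 0.213), 2.39-fold. For miR-762 the values were 9.61, 9.16 and 10.00 on the HDAC6 arrays, against 8.26, 8.41 and 8.74 on the Mock arrays. It had the widest spread over HDAC6 arrays of the 10 largest rises, and its difference was 1.12 (SE 0.263), 2.17-fold.

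By contrast, miR-575, which lies within the span of the desaturase gene SCD5 on chromosome 4, varied little within either group. It was 7.94, 8.18 and 7.90 on the HDAC6 arrays, against 6.87, 6.92 and 6.97 on the Mock arrays, a difference of 1.08 (SE 0.182) or 2.12-fold. The bright miR-939, which represses the inducible nitric oxide synthase NOS2 in human hepatocytes, read 10.47, 10.47 and 10.34 on the HDAC6 arrays, against 9.22, 9.32 and 9.52 on the Mock arrays. Its difference was 1.07 (SE 0.184), 2.10-fold. The 10th largest rise was that of miR-631, within the span of the DNA repair gene NEIL1 on chromosome 15, at 7.65, 7.55 and 7.40 on the HDAC6 arrays, against 6.66, 6.21 and 6.54 on the Mock arrays. The groups did not overlap in any of these, and the difference of miR-631 was 1.06 (SE 0.202), 2.09-fold.

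**Figure D2:**
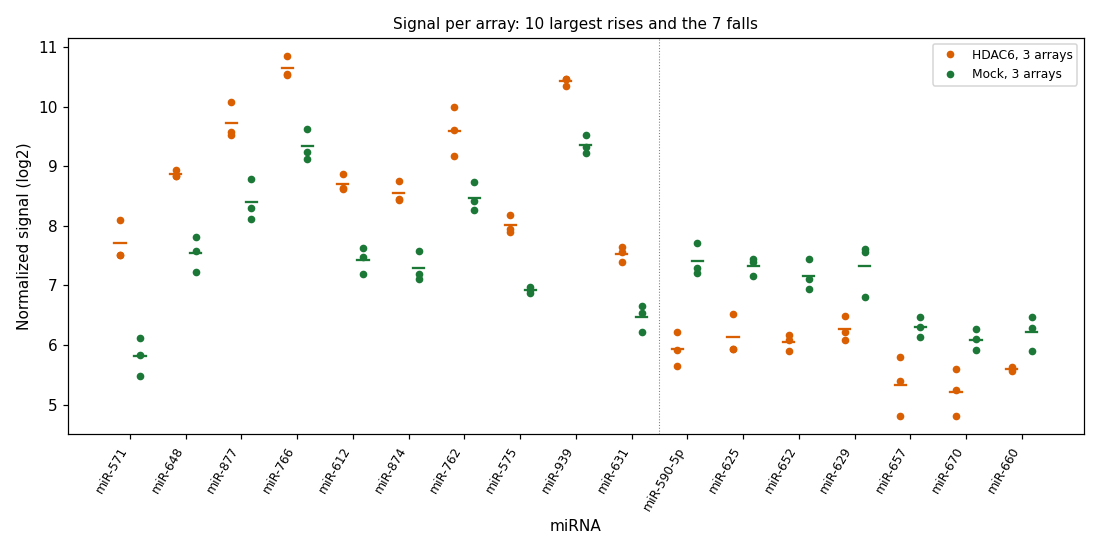
Normalized log2 signal of each array (points) and the mean of 3 arrays (short lines) for the 10 largest rises and, right of the dotted line, the 7 falls; HDAC6 arrays stand left of Mock arrays for each miRNA. No HDAC6 point reaches the Mock points of the same miRNA, and the 7 falls lie lower on the axis than most of the rises.

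Another 4 miRNAs were at least 2-fold higher: miR-608 by 1.06, miR-760 by 1.02, miR-565 by 1.02 and miR-596 by 1.02. Within this set, miR-608, which represses acetylcholinesterase in human cells, lies within the span of SEMA4G on chromosome 10. Of the remaining 12 rises, the brightest was miR-638, which had the highest mean of all 83 miRNAs (11.21) and the 20th highest of all rows. It lies within the span of the dynamin gene DNM2 on chromosome 19 and read 11.64, 11.65 and 11.78 on the HDAC6 arrays, against 10.62, 10.71 and 10.85 on the Mock arrays. The arrays of each group lay close together without overlap between groups, and the difference was 0.96 (SE 0.179). The other 11 rose by 0.93 (miR-593), 0.90 (miR-564), 0.86 (miR-636), 0.82 (miR-558), 0.79 (miR-921), 0.79 (miR-622), 0.75 (miR-671-5p), 0.73 (miR-769-3p), 0.66 (miR-920), 0.65 (miR-662) and 0.52 (miR-769-5p). For miR-596 and 10 of these 11, all but miR-593, the call was lost under at least 1 of the 14 alternative analyses, with adjusted p of 0.0502 to 0.195 where it was lost (limma), and leaving out a single array was enough in every case. Of the 15 other rises, 11 kept the call in all 14, and the 4 too dim for the analysis of brighter rows alone (miR-571, miR-575, miR-631 and miR-565) kept it in the other 13.

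The largest fall was that of miR-590-5p, which represses the TGF-beta receptor TGFBR2 in liver cancer cells and lies within the span of EIF4H on chromosome 7. Its signal was 6.22, 5.92 and 5.65 on the HDAC6 arrays, against 7.29, 7.22 and 7.70 on the Mock arrays. All HDAC6 arrays were about 1 unit or more below all Mock arrays. The difference was -1.47 (SE 0.234), a 2.78-fold lower level.

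For miR-625, which lies within the span of the fucosyltransferase gene FUT8 on chromosome 14, the signals were 5.93, 5.93 and 6.53 on the HDAC6 arrays, against 7.44, 7.15 and 7.39 on the Mock arrays. The groups did not overlap, and it was 2.29-fold lower (SE 0.230 on the log2 scale). The signals of miR-652, a conserved X-linked miRNA within the span of TMEM164 that was also studied in the serum of cirrhosis patients, were 6.16, 6.09 and 5.90 on the HDAC6 arrays, against 7.11, 6.95 and 7.44 on the Mock arrays. It was 2.16-fold lower, with a difference of -1.11 (SE 0.207). These 3 falls kept the call in the 13 alternative analyses that measured them, since brighter rows alone do not include them.

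The other 4 falls did not. In hepatocytes miR-629 represses HNF4A, a transcription factor of the liver, and it read 6.49, 6.09 and 6.22 on the HDAC6 arrays, against 7.57, 7.62 and 6.81 on the Mock arrays. Mock array 3 lay closer to the HDAC6 arrays than to the other Mock arrays, and the difference was -1.07 (SE 0.268). Its adjusted p was 0.0527 without Mock array 1 and 0.0572 with arrays centred on control rows (limma). The signals of miR-657, which represses TLE1 in liver cancer cells, were 4.82, 5.39 and 5.80 on the HDAC6 arrays, against 6.46, 6.14 and 6.31 on the Mock arrays. With a range of nearly 1 unit over the HDAC6 arrays, it differed by -0.97 (SE 0.275), and its call was lost without Mock array 1 (adjusted p = 0.0750 by limma) and without HDAC6 array 1 (adjusted p = 0.0795 by limma). The call of miR-657 was also lost under repeated quantile normalization, centring on control rows and an added offset (adjusted p = 0.0511 to 0.0820 by limma).

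The dimmest of the 83 miRNAs, miR-670, had signals of 5.59, 4.81 and 5.25 on the HDAC6 arrays, against 6.10, 5.92 and 6.26 on the Mock arrays, a difference of -0.88 (SE 0.246). Its call was lost when HDAC6 array 2, HDAC6 array 3, Mock array 1 or Mock array 3 was left out (limma, adjusted p = 0.0532 to 0.0607), and adjusted p reached 0.164 under repeated quantile normalization (limma). The smallest fall was that of miR-660, which belongs to the cluster of miR-188 and miR-532 within the span of CLCN5 on the X chromosome. It read 5.63, 5.60 and 5.56 on the HDAC6 arrays, against 6.47, 5.90 and 6.29 on the Mock arrays, and Mock array 2 was the closest to the HDAC6 arrays without overlapping them. The difference was -0.62 (SE 0.208, adjusted p = 0.0404 by limma), and adjusted p was 0.0612 to 0.231 in the 9 alternatives that lost the call, 5 of which leave out 1 array. On every Mock array, both miR-670 and miR-660 read below the row "none" of the same array.

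Level and difference went together across the 83 miRNAs. Of the 31 whose mean was at or above the median of all rows (7.55), 18 were higher and 0 lower, with a median difference of 0.79. Over all 291 rows at that level, 32.0% were higher and 26.8% lower, and of the 191 other guide-strand rows among them 43 were higher and 72 lower. At an unadjusted p under 0.05 limma gave 19 higher and still 0 lower, and no such count was made over all rows. Without Mock array 3, miR-764 was lower. Of the 52 dimmer ones, 8 were higher and 7 lower, with a median difference of 0.12. The count of 18 was 11 without HDAC6 array 1. Across miRNAs, level and difference correlated at r = 0.415 and rho = 0.526 (n = 83), and across the 303 other guide-strand rows at r = 0.0657 and rho = 0.0156. These are descriptions across rows that share the same 6 arrays, and the mean level contains the HDAC6 arrays themselves. As a group the 83 miRNAs were dim: their means ran from 5.66 to 11.21 with a median of 7.08, against a median of 8.05 for the other guide-strand rows.

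**Figure D3:**
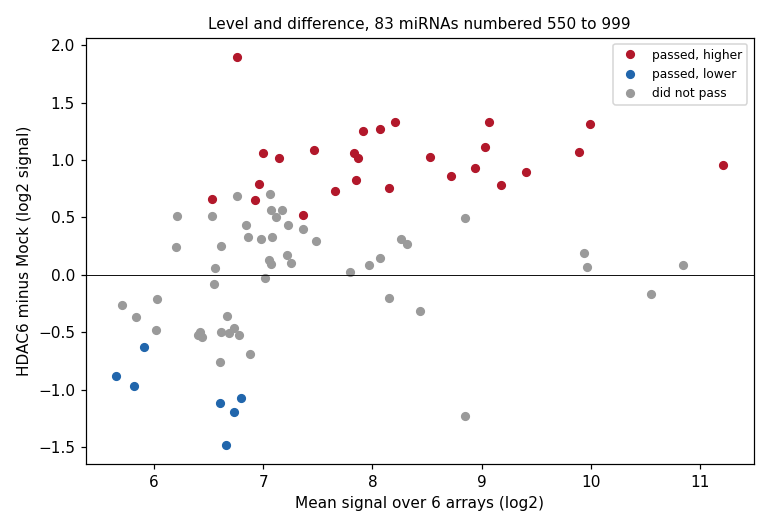
HDAC6-minus-Mock difference (y axis, log2 signal) against the mean signal over the 6 arrays (x axis, log2) for the 83 miRNAs. The 7 falls that passed (blue) all have means below 7, the rises (red) span means from 6.53 to 11.21, and the grey point near -1.22 is miR-764.

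Among the 5 brightest miRNAs, miR-638 and miR-766 rose and the other 3 did not pass. The levels of miR-661 were 11.20, 10.38 and 11.07 on the HDAC6 arrays, against 10.92, 11.40 and 10.06 on the Mock arrays, and the groups overlapped. For miR-637, which acts on LIF signalling in liver cancer cells, they were 10.82, 10.17 and 10.41 on the HDAC6 arrays, against 11.01, 10.76 and 10.13 on the Mock arrays, a difference of -0.17 (SE 0.288). The signals of miR-675, which is cut from the imprinted long noncoding RNA H19, were 10.03, 9.77 and 10.19 on the HDAC6 arrays, against 9.55, 9.88 and 10.34 on the Mock arrays, a difference of 0.07 (SE 0.253). In the order of means, miR-661 at 10.84 and miR-637 at 10.55 differed by less than their range over arrays of 1 group, as did miR-766 at 9.99 and miR-675 at 9.96. At the other end, miR-670 (5.66), miR-618 (5.71), miR-657 (5.82), miR-718 (5.83) and miR-660 (5.91) had the lowest means, and neighbours in that order also lay within their spread. The levels of miR-618 and miR-718 did not pass, with differences of -0.26 and -0.36.

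Of the 50 miRNAs that did not pass, 36 differed by 0.5 or less, 12 had groups that did not overlap, and 7 had an unadjusted p under 0.05. The only one past 1 unit was miR-764, the most variable of the 83 in both groups, at 9.13, 7.54 and 8.04 on the HDAC6 arrays, against 10.08, 10.26 and 8.04 on the Mock arrays (adjusted p = 0.15 by limma). Mock array 3 equalled HDAC6 array 3 to 2 decimals there. Without Mock array 3 its difference was -1.93 (adjusted p = 0.0159 by limma). The same was seen for miR-598, at -0.53 with all arrays and -1.01 without Mock array 3, and for miR-634, at -0.69 and -1.06. On Mock array 3, 6 of the 83 miRNAs were more than 1 unit from the mean of the other 2 Mock arrays: miR-595, miR-661, miR-598, miR-634 and miR-764 below it and miR-647 above. Without that array 25 miRNAs were higher and 8 lower, and of all rows 118 were higher and 128 lower.

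Nearest to the threshold was miR-645, at 7.41, 7.55 and 7.29 on the HDAC6 arrays, against 6.82, 7.07 and 6.25 on the Mock arrays. These groups did not overlap either, and the difference was 0.70 (SE 0.249, adjusted p = 0.0510 by limma). The conserved miR-744, which represses TGFB1, was 8.89, 9.22 and 9.18 on the HDAC6 arrays, against 8.59, 8.39 and 8.82 on the Mock arrays, a difference of 0.50 (SE 0.206). The conserved miR-708 read 6.29, 6.30 and 6.39 on the HDAC6 arrays, against 6.14, 5.54 and 6.57 on the Mock arrays, and the Mock arrays lay on both sides of the HDAC6 arrays.

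For 4 numbers, rows named for both arms were among the 83 miRNAs. Both arms of miR-769 rose, by 0.73 for miR-769-3p and by 0.52 for miR-769-5p. The arms are shown because they have different seeds, in capitals as above.
miR-769-3p: cUGGGAUCuccggggucuugguu
miR-769-5p: uGAGACCUcuggguucugagcu
miR-671-5p: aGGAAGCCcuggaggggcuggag
miR-671-3p: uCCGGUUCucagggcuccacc
The 5′ arm of miR-671, which directs cleavage of the circular RNA CDR1as, was 8.61, 8.44 and 8.53 on the HDAC6 arrays, against 7.78, 7.57 and 7.97 on the Mock arrays, and it passed at 0.75. The 3′ arm was 7.39, 6.78 and 7.19 on the HDAC6 arrays, against 7.14, 6.90 and 7.02 on the Mock arrays, with overlapping groups and a difference of 0.10 (SE 0.218). Whether the arms differed from each other was not tested. For miR-615 the differences were 0.31 in the 3′ arm and -0.36 in the 5′ arm. For miR-886, among the names later held to be other RNAs, the rows named 3p and 5p differed by -0.52 and -0.50. None of those 4 passed.

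For 23 miRNAs the array also held a row for the precursor hairpin of the same number. Of these precursor rows 10 were higher and 0 lower, where 32 of all 104 precursor rows were higher and 6 lower. An unadjusted p under 0.05 gave the same 10 and 0 (limma), without such a count over all precursor rows. Both forms were higher for 4 miRNAs (miR-612, miR-636, miR-638 and miR-648), only the mature form passed for 7, only the precursor for 6 and neither for 6. The sign was the same in 17 of 23 pairs, and in no pair did both forms pass in opposite directions. The count of 10 was 5 without HDAC6 array 1 and 6 without either HDAC6 array 3 or Mock array 1, and 2 precursor rows were lower without Mock array 3.

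The precursor of miR-648 changed most, at 10.03, 9.84 and 10.38 on the HDAC6 arrays, against 7.84, 7.95 and 8.01 on the Mock arrays, with a difference of 2.15 (SE 0.208). That was a larger difference than the 1.33 of mature miR-648, though the 2 were not tested against each other. The precursor of miR-612 read 8.08, 8.18 and 8.35 on the HDAC6 arrays, against 6.73, 7.03 and 7.06 on the Mock arrays, and its difference of 1.27 equalled that of the mature row. The precursor of miR-636 was 1.22 higher and that of miR-638 0.81 higher.

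In 2 pairs the precursor rose while the mature value was lower without passing. The precursor of miR-647 was 8.48, 8.26 and 8.46 on the HDAC6 arrays, against 7.35, 7.38 and 7.37 on the Mock arrays, a rise of 1.03, where mature miR-647 differed by -0.54 (SE 0.465). Mature miR-647 read 6.36, 5.99 and 6.18 on the HDAC6 arrays, against 6.51, 5.80 and 7.83 on the Mock arrays. These groups overlapped, and the negative value rests largely on Mock array 3. The precursor of miR-551b was 0.72 higher, where mature miR-551b differed by -0.76 (SE 0.309). The reverse held in 3 pairs. In miR-593 the mature row rose by 0.93 and the precursor differed by -0.27 (SE 0.376). That precursor read 6.55, 6.25 and 6.36 on the HDAC6 arrays, against 7.55, 6.06 and 6.34 on the Mock arrays, so the groups overlapped. In miR-596 the mature row rose by 1.02 and the precursor differed by -0.03 (SE 0.210). Neither precursor passed, and both differences were smaller than their SE. The third was miR-575, whose mature row rose by 1.08 while its precursor read 8.88, 8.24 and 8.58 on the HDAC6 arrays, against 9.19, 9.62 and 8.18 on the Mock arrays, a difference of -0.43 that did not pass. Whether a precursor probe also binds the mature form, or the reverse, was not tested. Star-strand rows were present for 7 of the miRNAs, and 0 of the 7 passed, also at an unadjusted p under 0.05 (limma).

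**Figure D4:**
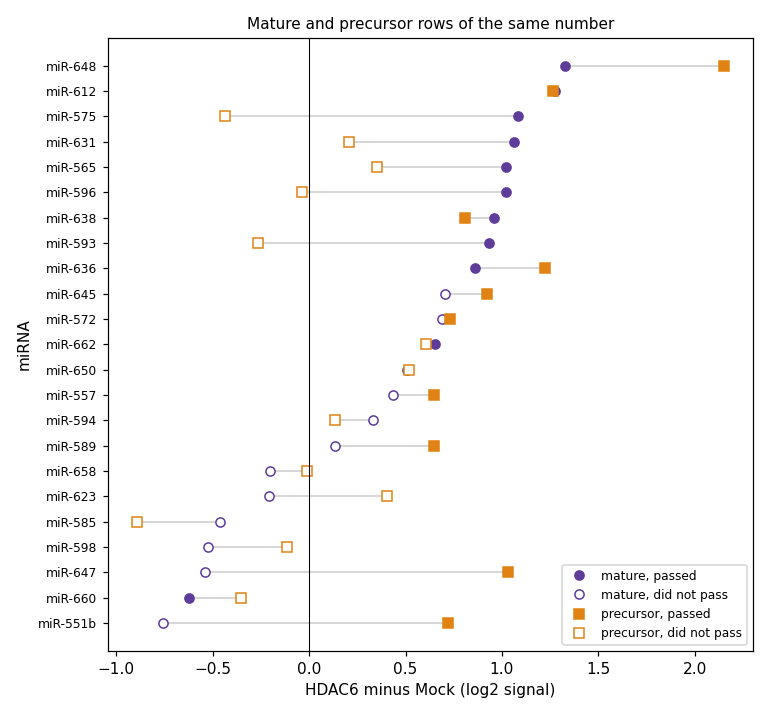
HDAC6-minus-Mock difference (x axis, log2 signal) of the mature row (purple circles) and the precursor row (orange squares) of the 23 miRNAs that had both; filled symbols passed the test and open ones did not. Both symbols are filled for miR-648, miR-612, miR-638 and miR-636, and the square of miR-648, at 2.15, is farthest to the right.

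By origin and make-up, 15 of the 83 were on a list drawn up as G-rich or C-rich names, of which 8 rose and 0 fell, with a median difference of 0.69. Among names with a sequence, some fit the list's title and others less so. On it, miR-762 has 63.6% G, miR-638 56% G, miR-765 52.4% G and miR-940 52.4% C. By contrast miR-921, a rise on it, has 52.0% G and C together. Of names not on it, miR-718 (85.7% G and C) and miR-615-5p (77.3%) both differed by -0.36 without passing. Too few miRNAs had a sequence, so a link between base composition and difference was not tested. On the list the largest differences were those of miR-877, miR-874 and miR-762, and the one negative value was that of miR-933 (-0.48). At an unadjusted p under 0.05 limma gave 10 rises and 1 fall on that list, and no such count was made over all rows. Of 12 rows on a list of conserved names, which holds both arms of miR-615 and of miR-671, 2 rose (miR-874 and miR-671-5p). On it 3 fell (miR-590-5p, miR-652 and miR-660), and the median was 0.08. Without HDAC6 array 1, miR-874 alone rose there. Of the 6 miRNAs on a list of X-linked names, miR-766 rose and miR-652 and miR-660 fell, with only 1 fall when any single array other than Mock array 2 was left out. The X-linked miR-890, miR-891a and miR-892b, from a cluster known for expression in the epididymis, had differences of 0.06, -0.03 and 0.25. The list left out miR-718 and miR-764, which RefSeq also places on X and which differed by -0.36 and -1.22 without passing. Of 6 names later held to be other RNAs, only miR-565, a tRNA fragment, rose, with a median of -0.12. The tRNA fragments miR-720 and miR-594 differed by 0.09 and 0.33, and the snoRNA fragment miR-768-5p by -0.32. Also among these names, miR-886-3p and miR-886-5p differed by -0.52 and -0.50. These lists were drawn up with results of these arrays known, and their counts stand beside 26 rises and 7 falls over all 83.

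Hairpin genes of 61 of the miRNAs were matched to RefSeq by name. They lay on 19 chromosomes, 8 of them on the X chromosome, and 50 lay within the span of another gene, strand and exon not considered. That was the case for 17 of the 19 matched miRNAs that rose and for all 7 that fell, against 50 of 61 over all matched miRNAs. Arms of the same hairpin were counted separately here, and the rises outside a span were both arms of miR-769.

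The omitted numbers and the ends of the range set the limits of what was counted. Of the omitted numbers 7 rows were on the array, and 5 of them were higher: miR-574-5p by 2.44, miR-566 by 1.92, miR-665 by 1.52, miR-885-3p by 1.43 and miR-570 by 0.89. At the low end miR-550 (0.17) and miR-551b (-0.76) were inside, and miR-548n (0.30) and miR-548q (1.03) just outside. At the high end miR-940 (0.50) and miR-943 (0.30) were inside, and miR-1180 (0.88) and miR-1181 (1.08) just outside.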

How the data were processed

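MiRNA signals were measured on 6 arrays, 3 HDAC6 and 3 Mock, grouped and numbered by title. Per the labels, images were quantified in GenePix Pro 5.0 without spots that looked poor, and means of 3 spots per probe went through quantile normalization and a class filter in GenePlex 3.0. The values deposited by the authors are log2 signals, as their range shows. Background correction and the class filter's rule are not given in the sources used here. Of 582 rows, 1 had no value.

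The test was limma's moderated one (version 3.58.1, R 4.3.3, no covariate), HDAC6 minus Mock on all 581 rows, adjusted by Benjamini-Hochberg at 0.05, and the procedure was tested on simulated data. The number of arrays limits the precision.

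Members and lists were chosen with earlier results of these data known. Named miRNAs were the 10 largest rises and up to 10 largest falls without overlap between groups, the 5 highest and 5 lowest means, those with a precursor row or both arms on the array, miR-571, miR-648, list members, and 2 rows on each side of each end of the number range. Any other named miRNA was picked with its values in view. The 14 alternatives changed scaling, offset, level filter, variance model or block, or left out 1 array. Counts of lists and precursor rows under them were added after seeing the data. Sequences came from RefSeq (GRCh38.p14), by exact name.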

Additional observations from a re-analysis of the deposited data

How the results depend on the processing

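No difference of the 33 called miRNAs changed sign in 447 alternative values. Their groups did not overlap, so a sign could change only where arrays were rescaled (median centring, repeated quantile normalization or centring on control rows). In every alternative that measured them, 15 of 26 rises and 3 of 7 falls (miR-590-5p, miR-625 and miR-652) kept their call. That was all 14 for 11 of the rises, and 13 for the other 4 and the 3 falls. With 26 rises, 7 falls and a median difference of 0.30 as reported, repeated quantile normalization gave 4 falls and a median of 0.41 (it moved the median of all rows to 0.08, against -0.09), centring on control rows 16, 3 and 0.38, an offset at the 25th percentile 4 falls and 0.18, rows at or above the median level (31 miRNAs) 0 falls and 0.79, and array weights 12 falls. The brighter rows hold none of the 7 falls; otherwise the cause was not tested. Leaving out each array in turn gave 16 to 25 rises, 3 to 8 falls and a median of 0.25 to 0.38. Centring on control rows left 5 of the 10 precursor calls. Under the offset all 7 falls and 8 of 26 rises shrank by over 1.5 times, to 1.01 for miR-571 and -0.76 for miR-590-5p. An offset by its nature shrinks the differences of dim rows most, and the 7 falls were all dim. Deviations from the group means correlated at r = 0.160, -0.0865 and 0.192 between same-numbered arrays, against -0.292 to 0.191 between arrays of different numbers. With 3 arrays per group, these values cannot decide whether the numbers pair the arrays. With the replicate number as a block there were 25 rises and 6 falls. Median centring and the intensity trend with robust priors each gave 26 rises and 7 falls. Signal over background is unknown, which limits what can be said of dim rows.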
